A study of Homo sapiens with 32 samples.

Results

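The genes of cholesterol and fatty acid synthesis were followed in 2 human germ cell cancer lines. They comprised 33 of the 61541 genes in the deposited count table, each chosen by its symbol. Of these, 19 encode enzymes of the sterol branch, 8 encode enzymes of the fatty acid branch, and 6 encode regulators or a sterol carrier. TCam-2 is a line derived from seminoma, and NTera2 is a line derived from embryonal carcinoma. Each line received recombinant RANKL, osteoprotegerin (OPG), Denosumab or the vehicle D-PBS for 48 h, and messenger RNA was sequenced. RANKL binds and activates RANK, while OPG (a soluble decoy receptor) and denosumab (an antibody) each capture RANKL. The 8 groups, TCam-2 RANKL, OPG, Denosumab and Vehicle and NTera2 RANKL, OPG, Denosumab and Vehicle, held 4 libraries each, 32 in all. RANKL and OPG were given at 1 µg/ml per the protocol, which names no dose of denosumab and lists RANKL a further time, so the Denosumab groups rest on their labels. All groups carried 10% fetal bovine serum, a source of cholesterol and fatty acids. TCam-2 was grown in RPMI 1640 and NTera2 in DMEM, so line and medium cannot be told apart. Each tumour type was represented by 1 line, and the 4 libraries of a group came from 4 independent experiments at different passages (118, 120, 121 and 122 in TCam-2, 27, 29, 30 and 31 in NTera2).

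Cholesterol and long-chain fatty acids are both built from cytosolic acetyl-CoA. In the sterol branch, acetyl-CoA is condensed and reduced to mevalonate, mevalonate is turned into isoprenoid units and squalene, and squalene is cyclised to lanosterol and trimmed to cholesterol. In the fatty acid branch, acetyl-CoA is carboxylated and polymerised to palmitate, which is then elongated and desaturated. Both branches are transcribed under the sterol regulatory element-binding proteins, which the escort protein SCAP carries to the Golgi for cleavage when sterols are low and which the INSIG proteins hold in the endoplasmic reticulum when sterols are high.

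Promoter sequence is shown for the members with the widest differences between the lines in each direction among those with an entry in the RefSeq promoter table (ELOVL6 and STARD4 higher, FADS1 and FADS2 lower in TCam-2), for the widest of the sterol branch in each direction (NSDHL and LSS), and for SREBF2, which held the letters of a sterol regulatory element. Each line gives the 250 bases before the RefSeq transcription start in GRCh38.p14, read 5′ to 3′ on the gene's strand. Capitals mark 3 motifs on either strand: the NF-Y box (CCAAT), the Sp1 box (GGGCGG) and the sterol regulatory element (TCACNCCAC).
ELOVL6: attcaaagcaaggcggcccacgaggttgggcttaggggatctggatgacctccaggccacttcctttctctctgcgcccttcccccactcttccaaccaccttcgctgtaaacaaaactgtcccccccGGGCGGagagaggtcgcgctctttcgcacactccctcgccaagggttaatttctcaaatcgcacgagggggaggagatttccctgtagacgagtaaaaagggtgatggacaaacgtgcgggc
STARD4: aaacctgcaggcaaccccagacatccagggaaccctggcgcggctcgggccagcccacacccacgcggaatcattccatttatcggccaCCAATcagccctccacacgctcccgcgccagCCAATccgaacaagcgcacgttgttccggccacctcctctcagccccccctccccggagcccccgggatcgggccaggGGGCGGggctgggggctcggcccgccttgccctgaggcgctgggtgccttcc
FADS1: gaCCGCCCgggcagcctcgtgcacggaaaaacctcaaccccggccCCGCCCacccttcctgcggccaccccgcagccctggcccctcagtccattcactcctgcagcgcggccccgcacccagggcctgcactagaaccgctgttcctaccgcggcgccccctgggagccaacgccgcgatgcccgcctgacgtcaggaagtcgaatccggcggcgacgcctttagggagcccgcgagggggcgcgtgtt
FADS2: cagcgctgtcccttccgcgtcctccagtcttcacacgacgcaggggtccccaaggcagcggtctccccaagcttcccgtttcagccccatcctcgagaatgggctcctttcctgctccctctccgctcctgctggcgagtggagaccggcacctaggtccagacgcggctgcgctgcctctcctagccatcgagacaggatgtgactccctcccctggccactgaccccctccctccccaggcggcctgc
NSDHL: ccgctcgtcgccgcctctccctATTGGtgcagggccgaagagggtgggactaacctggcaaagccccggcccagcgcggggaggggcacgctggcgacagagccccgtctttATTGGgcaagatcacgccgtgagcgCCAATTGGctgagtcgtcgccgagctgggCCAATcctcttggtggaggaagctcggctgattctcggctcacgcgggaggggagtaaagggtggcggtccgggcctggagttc
LSS: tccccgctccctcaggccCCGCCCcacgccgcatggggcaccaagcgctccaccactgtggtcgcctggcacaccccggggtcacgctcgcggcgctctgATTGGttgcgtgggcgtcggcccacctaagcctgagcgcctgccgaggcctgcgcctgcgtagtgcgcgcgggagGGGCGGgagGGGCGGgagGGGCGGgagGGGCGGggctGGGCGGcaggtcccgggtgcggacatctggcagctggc
SREBF2: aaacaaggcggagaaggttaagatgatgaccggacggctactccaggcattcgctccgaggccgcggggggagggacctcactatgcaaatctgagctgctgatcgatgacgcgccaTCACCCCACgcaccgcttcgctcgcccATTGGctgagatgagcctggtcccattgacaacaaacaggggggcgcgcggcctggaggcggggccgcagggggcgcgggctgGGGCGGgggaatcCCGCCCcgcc

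The windows were chr4:110198616-110198865 (minus strand) for ELOVL6, chr5:111512536-111512785 (minus strand) for STARD4, chr11:61817004-61817253 (minus strand) for FADS1 and chr11:61815953-61816202 (plus strand) for FADS2. They were chrX:152830813-152831062 (plus strand) for NSDHL, chr21:46228775-46229024 (minus strand) for LSS and chr22:41832855-41833104 (plus strand) for SREBF2. The deposited gene spans reach into each of these windows except that of STARD4. A promoter was found for 29 of the 33 members, and FDFT1, ACAT2, SQLE and FASN had no entry. The letters of the NF-Y box stood in 18 of 29 member promoters (62.1%) and in 33% of all 27305 promoters of this length. In the sterol branch they stood in 12 of 16, in the fatty acid branch in 3 of 7, and among the regulators in 3 of 6. The Sp1 box stood in 26 of 29 (89.7%), against 42.3% of all promoters. The sterol regulatory element stood in 1 of 29, that of SREBF2 at position -133, against 0.875% of all promoters. In the NSDHL window 2 NF-Y boxes on opposite strands overlap, and FADS2 held no match to any of these motifs. These are matches of letters, and binding was not measured.

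Total counts per library ran from 10585247 to 20257935 in TCam-2 and from 11385500 to 30499538 in NTera2. Levels are given as CPM, the count relative to the TMM-scaled library total. Where genes are set side by side they are given as TPM. These divide by the deposited gene length and are scaled to the library sum, without TMM factors. All 33 members passed the low-count filter in every fit. The line labels were checked on marker genes. SOX17, a germ cell regulator of seminoma, was at 118 to 194 CPM in TCam-2 and at 0 to 0.277 CPM in NTera2, where 9 of 16 libraries had none. SOX2, a pluripotency factor of embryonal carcinoma, was at 0.691 to 4.76 CPM in TCam-2 and at 219 to 340 CPM in NTera2. The summed level of 5 markers of leukocytes, endothelium and fibroblasts was 3.11 to 5.31 CPM in TCam-2 and 0.485 to 1.59 CPM in NTera2, and most of it in TCam-2 came from the endothelial gene CDH5 (2.38 to 5.07 CPM). The leukocyte gene PTPRC was at 0 in 15 of 16 TCam-2 and 16 of 16 NTera2 libraries. RNA integrity numbers were 8.3 or higher except in TCam-2 RANKL replicates 2 (6.1) and 4 (3.7), and NTera2 Vehicle replicate 1 had none.

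The comparison of the vehicle libraries showed how the untreated lines differ. TCam-2 had far less mRNA of ACAT2, which makes acetoacetyl-CoA at the entry of the sterol branch, and of the desaturases FADS1 and FADS2, and more of the elongase ELOVL6. Of the 33 members, 27 passed edgeR's quasi-likelihood test at an adjusted p under 0.05 (Benjamini-Hochberg over all genes tested), against 76.2% of all 16816 genes tested. In TCam-2, 12 were higher, where the share of all genes was 37.4%, and 15 were lower, where it was 38.8%. The member median log2 fold change was -0.11, beside -0.01 over all genes tested. The ranges of the lines overlapped for 8 members, PMVK, MVD, FDFT1, TM7SF2, LBR, MSMO1, SC5D and FASN, and did not for the other 25, against 70% of all genes tested without overlap. In all values below, TCam-2 is set over NTera2, SE is the standard error of the log2 fold change, and n is 4 libraries a group.

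**Figure D1:**
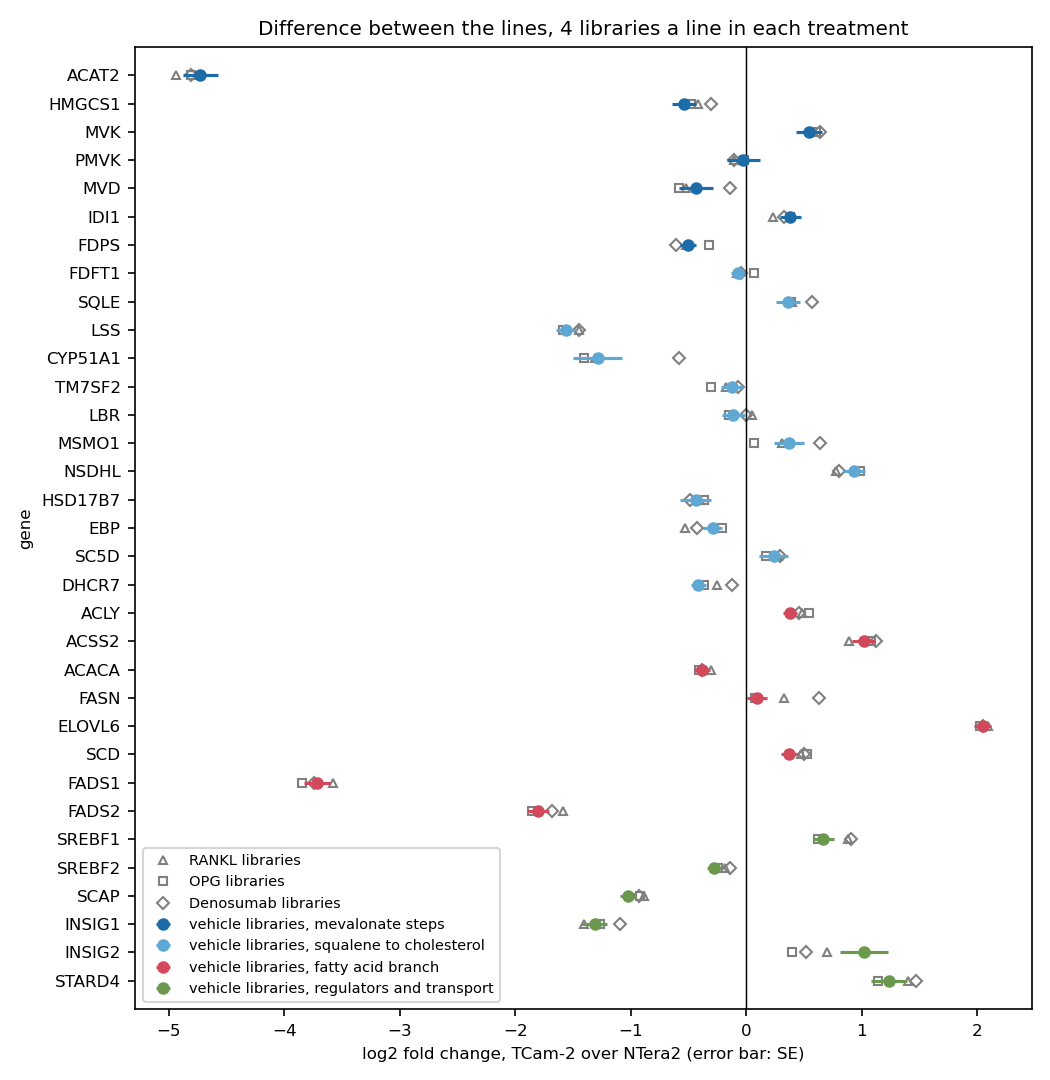
Log2 fold change of TCam-2 over NTera2 (x axis) for each of the 33 members (y axis). Filled circles are vehicle libraries with the SE, coloured by branch, and open grey marks are the same contrast under RANKL, OPG and Denosumab. ACAT2, FADS1, FADS2 and LSS lie far to the left and ELOVL6 far to the right under each treatment.

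In the mevalonate steps, 2 of 7 members were higher in TCam-2, 4 were lower and 1 did not pass. ACAT2 was at 7.25, 8.06, 4.39 and 9.40 CPM in TCam-2 vehicle libraries, against 189, 188, 207 and 199 CPM in NTera2 vehicle libraries. The groups were far apart, with every TCam-2 library under every NTera2 library, and ACAT2 was 26.5-fold lower (log2 fold change -4.73, SE 0.153, edgeR adjusted p = 6.43e-14). In the GENCODE 29 annotation, 52.3% of the exon bases of ACAT2 overlap opposite-strand genes (TCP1, a chaperonin subunit, and SOD2, a mitochondrial dismutase, with its overlapping transcript), and the strand setting of the counting was not given in the sources used here. TCP1 was at 1591 ± 139 CPM in TCam-2 and 295.7 ± 16.5 CPM in NTera2 (SD), and its part in the ACAT2 value was not tested. HMGCS1, the synthase that joins acetoacetyl-CoA and acetyl-CoA, was lower (-0.54, SE 0.103, adjusted p = 0.000162). MVD, which decarboxylates the diphosphate of mevalonate, was lower (-0.43, SE 0.146, adjusted p = 0.0126), and so was FDPS, the farnesyl diphosphate synthase (-0.51, SE 0.067, adjusted p = 3.28e-06). The mevalonate kinase MVK was higher, at 45.2, 52.1, 40.1 and 52.0 CPM in TCam-2 against 32.7, 34.5, 30.5 and 34.2 CPM in NTera2 (0.54, SE 0.108, adjusted p = 0.000252). IDI1, the isomerase that makes the reactive isoprenoid unit, was higher as well (0.38, SE 0.0911, adjusted p = 0.00122). The next kinase, PMVK, did not differ detectably (-0.03, 95% interval -0.30 to 0.25, adjusted p = 0.872). Opposite-strand genes cover 18.6% of the FDPS exon bases, 15% of HMGCS1 and 14.8% of IDI1.

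From squalene to cholesterol, 3 of 12 members were higher in TCam-2, 5 were lower and 4 did not pass. LSS, the lanosterol synthase that closes the sterol rings, was at 132, 92.4, 100.4 and 117 CPM in TCam-2 and at 327, 337, 309.6 and 342 CPM in NTera2. The highest TCam-2 library was well under the lowest NTera2 library, and LSS was 2.95-fold lower (log2 fold change -1.56, SE 0.0889, adjusted p = 8.72e-11). NSDHL, a dehydrogenase that helps remove the methyl groups of lanosterol, went the other way at 66.8, 70.2, 58.4 and 62.7 CPM in TCam-2 and 32.6, 37.3, 33.2 and 33.9 CPM in NTera2. Its groups did not overlap either, and it was 1.91-fold higher (0.93, SE 0.0952, adjusted p = 1.45e-07). SQLE, the squalene epoxidase, was higher (0.36, SE 0.104, adjusted p = 0.00485), and so was the methylsterol oxidase MSMO1 (0.37, SE 0.129, adjusted p = 0.0154). The MSMO1 call was lost, with adjusted p between 0.0529 and 0.0944, when NTera2 Vehicle replicate 2, 3 or 4 or TCam-2 Vehicle replicate 1 or 2 was left out. The late enzymes EBP, an isomerase (-0.29, SE 0.0853, adjusted p = 0.00515), HSD17B7, a ketoreductase (-0.44, SE 0.136, adjusted p = 0.00778), and DHCR7, the last reductase (-0.42, SE 0.0642, adjusted p = 1.80e-05), were lower. A named HSD17B7 pseudogene held 14.3% of the counts of the pair, so the level of HSD17B7 is uncertain. CYP51A1, the lanosterol demethylase, was at 3.28, 1.74, 3.37 and 3.88 CPM in TCam-2 and 7.70, 8.30, 6.91 and 7.62 CPM in NTera2 (-1.29, SE 0.211, adjusted p = 3.48e-05). Genes annotated on the same strand cover 79.4% of the CYP51A1 exon bases and were at 0 counts in all vehicle libraries, so its level is uncertain.

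The 4 members of this stretch that did not pass were FDFT1, TM7SF2, LBR and SC5D. FDFT1, the squalene synthase at the branch point to sterols, differed by -0.07 (95% interval -0.19 to 0.04, adjusted p = 0.277). TM7SF2 and LBR encode reductases of the same sterol double bond, LBR also being a receptor of the nuclear lamina, and differed by -0.12 (-0.30 to 0.06) and -0.11 (-0.31 to 0.08). SC5D, a sterol desaturase, differed by 0.24 (-0.01 to 0.48, adjusted p = 0.093). Its call was gained without TCam-2 Vehicle replicate 3 (adjusted p = 0.0478).

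In the fatty acid branch, 4 of 8 members were higher in TCam-2, 3 were lower and 1 did not pass. The median log2 fold change was 0.23, beside -0.12 in the sterol branch, where 5 of 19 members were higher, 9 lower and 5 did not pass. The difference between the branches was not tested. The suppliers of acetyl-CoA were both higher in TCam-2. ACSS2, which makes acetyl-CoA from acetate, was at 51.6, 39.7, 44.3 and 47.5 CPM in TCam-2 and 23.4, 22.7, 23.3 and 22.2 CPM in NTera2 (1.02, SE 0.0998, adjusted p = 9.13e-08). ACLY, which makes it from citrate, was higher by 0.38 (SE 0.0583, adjusted p = 1.89e-05). ACACA, the carboxylase that commits acetyl-CoA to fatty acids, was lower (-0.39, SE 0.0701, adjusted p = 9.77e-05). FASN, the synthase that makes palmitate, was at 1508, 1610.5, 1369 and 1549 CPM in TCam-2 and 1378, 1565, 1201 and 1604 CPM in NTera2. These ranges overlapped, and the difference was 0.09 (95% interval -0.07 to 0.26, adjusted p = 0.332).

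The enzymes that modify palmitate differed in opposite ways. ELOVL6, which elongates palmitate, was at 193, 176, 178 and 178 CPM in TCam-2 and 46.9, 44.0, 40.8 and 46.0 CPM in NTera2. Its levels were tight within each line and apart between them, 4.13-fold higher in TCam-2 (2.04, SE 0.0753, adjusted p = 3.24e-13). SCD, which makes monounsaturated fatty acids, was higher by 0.37 (SE 0.0674, adjusted p = 0.000104). FADS1, a desaturase of polyunsaturated fatty acids, was at 25.9, 21.8, 24.0 and 16.2 CPM in TCam-2 and 284, 294, 292 and 301 CPM in NTera2. It was 13.2-fold lower in TCam-2 (-3.72, SE 0.111, adjusted p = 2.37e-14), with no overlap of the groups. FADS2, the desaturase that acts before it, was at 249, 164, 187 and 169 CPM in TCam-2 and 654, 703, 671 and 688 CPM in NTera2. It was 3.49-fold lower (-1.80, SE 0.0989, adjusted p = 5.21e-11). In the deposited table (GRCh38) FADS1 spans chr11:61799627-61829318 on the minus strand and FADS2 chr11:61792980-61867354 on the plus strand, and 4.79% of the FADS1 exon bases and 4.44% of those of FADS2 overlap the partner.

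**Figure D2:**
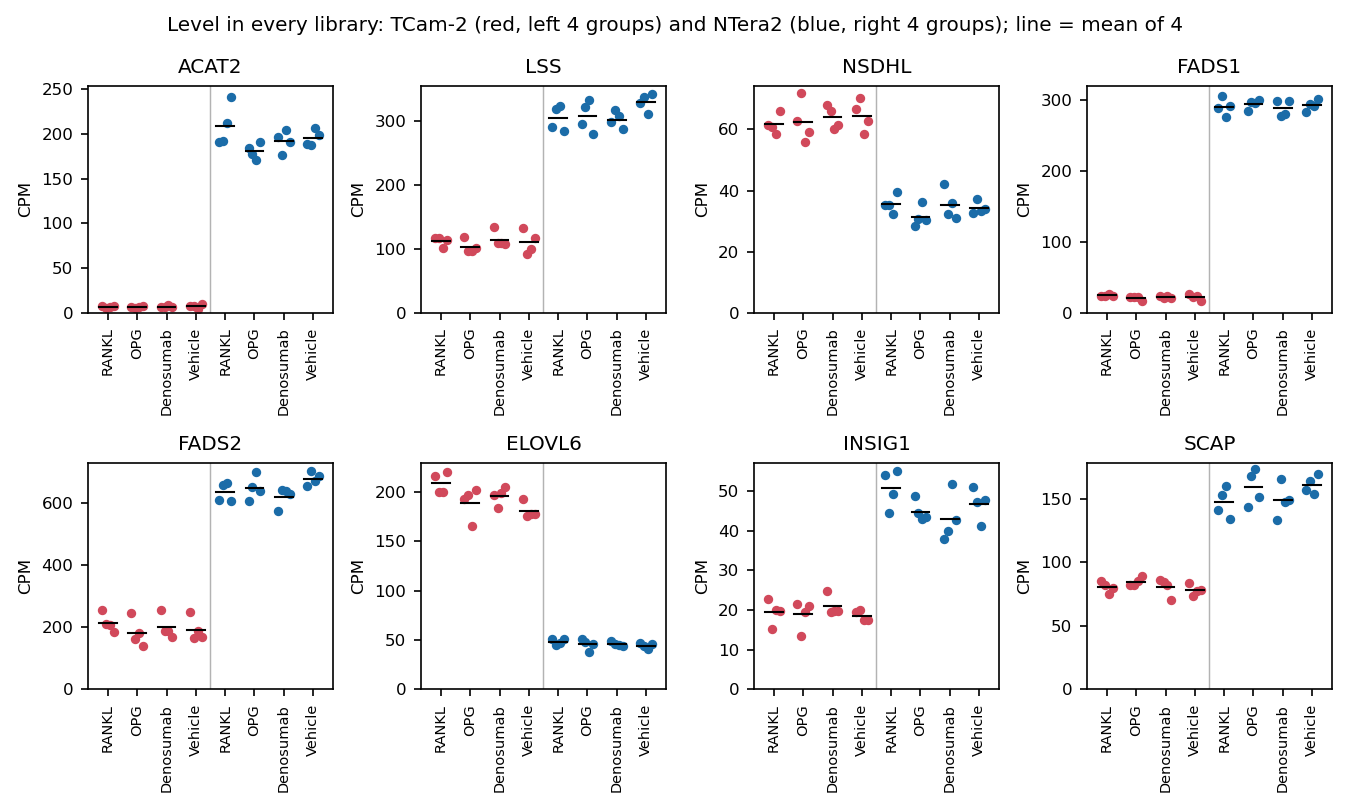
Level in CPM (y axes, from 0) of 8 members in every library, with the 4 TCam-2 groups in red at the left of each panel, the 4 NTera2 groups in blue at the right, and a black line at the mean of 4 libraries. The lines do not overlap in any of these panels, and the treatment means within a line lie close together.

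All 6 regulators and carriers passed, 3 higher and 3 lower in TCam-2. SREBF1, whose products act mainly on fatty acid genes, was at 126, 145, 135 and 137 CPM in TCam-2 and 85.6, 96.7, 71.5 and 92.8 CPM in NTera2 (0.67, SE 0.0928, adjusted p = 5.85e-06). SREBF2, which acts mainly on sterol genes, was at 245, 232, 259.8 and 246 CPM in TCam-2 and 291, 312, 299 and 304 CPM in NTera2 (-0.28, SE 0.0591, adjusted p = 0.000433). SREBF1 was thus higher and SREBF2 lower in TCam-2, without overlap of the groups in either case. SCAP, the escort, was at 83.7, 73.2, 77.2 and 78.5 CPM in TCam-2 and 157, 164, 154 and 170.0 CPM in NTera2 (-1.03, SE 0.0694, adjusted p = 7.70e-10). INSIG1, the retention protein that the pathway itself induces, was at 19.4, 20.1, 17.5 and 17.5 CPM in TCam-2 and 51.1, 47.2, 41.2 and 47.8 CPM in NTera2. It was 2.49-fold lower (-1.31, SE 0.108, adjusted p = 9.76e-09), and its paralogue INSIG2 was 2.03-fold higher. INSIG2 was at 10.2, 10.7, 9.64 and 7.46 CPM in TCam-2 and 6.17, 3.28, 4.48 and 4.91 CPM in NTera2 (1.02, SE 0.205, adjusted p = 0.000259). STARD4, a soluble carrier of cholesterol, was at 41.1, 28.7, 33.4 and 22.5 CPM in TCam-2 and 14.4, 12.1, 13.1 and 14.1 CPM in NTera2 (1.24, SE 0.156, adjusted p = 1.88e-06).

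Within each line, the related pairs stood in different proportion. On the TPM scale, the ratio of INSIG1 to INSIG2 was 2.15 ± 0.265 in TCam-2 vehicle libraries and 11.3 ± 2.95 in NTera2 vehicle libraries (SD, n = 4 each). The ratio of FADS1 to FADS2 was 0.119 ± 0.0187 in TCam-2 and 0.445 ± 0.00898 in NTera2, and that of SREBF1 to SREBF2 was 0.508 ± 0.0472 in TCam-2 and 0.263 ± 0.0298 in NTera2. These 3 ratios did not overlap between the lines. The ratio of TM7SF2 to LBR was 0.476 ± 0.0814 in TCam-2 and 0.472 ± 0.0416 in NTera2, within the spread of the libraries.

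By level per length, the order of the members in TCam-2 vehicle libraries began with SCD at 610 ± 73.9 TPM and FASN at 597 ± 51.5 TPM, which did not differ beyond their spread. ACLY followed at 462 ± 33.8 TPM, FDFT1 at 313 ± 15.2 TPM and FDPS at 281 ± 10.2 TPM. In NTera2 the order began with FASN at 599 ± 67.0 TPM, SCD at 503 ± 23.7 TPM, FDPS at 428 ± 13.5 TPM, ACLY at 380 ± 13.0 TPM and FDFT1 at 351 ± 5.72 TPM. The same 5 enzymes thus led both lines. ACAT2, at 10.1 ± 2.76 TPM in TCam-2 and 289 ± 15.8 TPM in NTera2, stood next in NTera2 only. At the low end stood FADS1 at 7.97 ± 1.73 TPM and CYP51A1 at 2.69 ± 0.728 TPM in TCam-2, and INSIG2 at 4.65 ± 1.25 TPM in NTera2. The place of CYP51A1 is uncertain, since same-strand genes cover 79.4% of its exon bases. The deposited length counts all exons of a gene, so TPM understates genes whose long exons are little used. TPM carry no TMM factors, which were 0.926 to 1.00 in TCam-2 and 1.03 to 1.07 in NTera2 vehicle libraries. TMM scaling would thus raise the TCam-2 values relative to those of NTera2. Summed over a branch without it, the fatty acid enzymes came to 1902 ± 142 TPM in TCam-2 and 1929 ± 47.3 TPM in NTera2, with overlapping ranges. The sterol enzymes came to 1654 ± 67.0 TPM in TCam-2 and 2310 ± 14.9 TPM in NTera2, without overlap. ACAT2, with 52.3% of its exon bases under opposite-strand genes, entered this sum at 10.1 TPM in TCam-2 and 289 TPM in NTera2.

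The same contrast was fitted in the libraries of each treatment, which share none with the vehicle libraries. With RANKL, 29 of 33 members passed, against 74.3% of all genes tested. In TCam-2 14 were higher, where the share of all genes was 37.5%, and 15 lower, where it was 36.9%. With OPG, 25 passed, against 76.2%, with 10 higher (36.8% of all genes) and 15 lower (39.4%). With Denosumab, 27 passed, against 79.7%, with 14 higher (39.6% of all genes) and 13 lower (40.1%). Called the same way under all 4 treatments were 22 of 33 members, against 67.6% of the 16045 genes tested in all 4 contrasts, a share near the background. In TCam-2, 10 of these members were higher (33.5% of all genes) and 12 lower (34.2%). They were 7 of 8 in the fatty acid branch, all but FASN, 5 of 6 regulators, all but INSIG2, and 10 of 19 in the sterol branch. The log2 fold change of ACAT2 ranged over the treatments from -4.94 to -4.73, that of FADS1 from -3.85 to -3.58, that of LSS from -1.59 to -1.45 and that of ELOVL6 from 2.02 to 2.09. Wider ranges were those of FASN, from 0.07 to 0.63, MSMO1, from 0.07 to 0.63, INSIG2, from 0.40 to 1.02, and CYP51A1, from -1.41 to -0.58. Without TCam-2 RANKL replicates 2 and 4, 26 members passed under RANKL (12 higher, 14 lower), against 67% of all 18197 genes tested in that fit.

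Other genes of the pathway were taken from a list of 48, of which 46 could be tested. In TCam-2 vehicle libraries 17 were higher and 23 lower, where 37.4% and 38.8% of all genes tested were. Their median log2 fold change was -0.31, beside -0.01 over all genes tested. All 7 of the sterol and isoprenoid genes on this list were lower. The widest differences downward were those of VLDLR, a lipoprotein receptor (-3.13, SE 0.130, adjusted p = 1.45e-12), HACD1, a dehydratase of fatty acid elongation (-2.75, SE 0.258, adjusted p = 5.04e-08), and ELOVL5, an elongase of polyunsaturated fatty acids (-2.73, SE 0.133, adjusted p = 1.13e-11). ELOVL5 was at 9.77 ± 2.22 CPM in TCam-2 and 65.6 ± 4.57 CPM in NTera2. Upward, ELOVL7, a further elongase, was at 8.09 ± 2.01 CPM in TCam-2 and 2.62 ± 0.612 CPM in NTera2 (1.62, SE 0.237, adjusted p = 1.00e-05). ME1, the malic enzyme that supplies reducing power to fatty acid synthesis, had 707 counts over the 4 TCam-2 vehicle libraries and 4 over the 4 of NTera2, a ratio of 223 after scaling (exact 95% counting interval 86.5 to 819, edgeR adjusted p = 6.07e-13). SOAT2, which esterifies cholesterol, had 339 counts in TCam-2 and 1 in NTera2, a ratio of 427 (76.1 to 16900, edgeR adjusted p = 1.09e-10). These intervals cover counting error only.

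The study's question was what RANKL and its inhibitors do to each line. No member passed in any of the 6 comparisons of a treatment with vehicle by edgeR, where 0% of all genes tested were called, and none passed by DESeq2. The 3 comparisons of a line share its vehicle libraries. Named below are the 6 members of smallest unadjusted p in each, and their values are given as measured differences that did not pass. Across the members, the log2 fold changes ran from -0.49 (CYP51A1, NTera2 Denosumab) to 0.51 (INSIG2, NTera2 Denosumab).

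**Figure D3:**
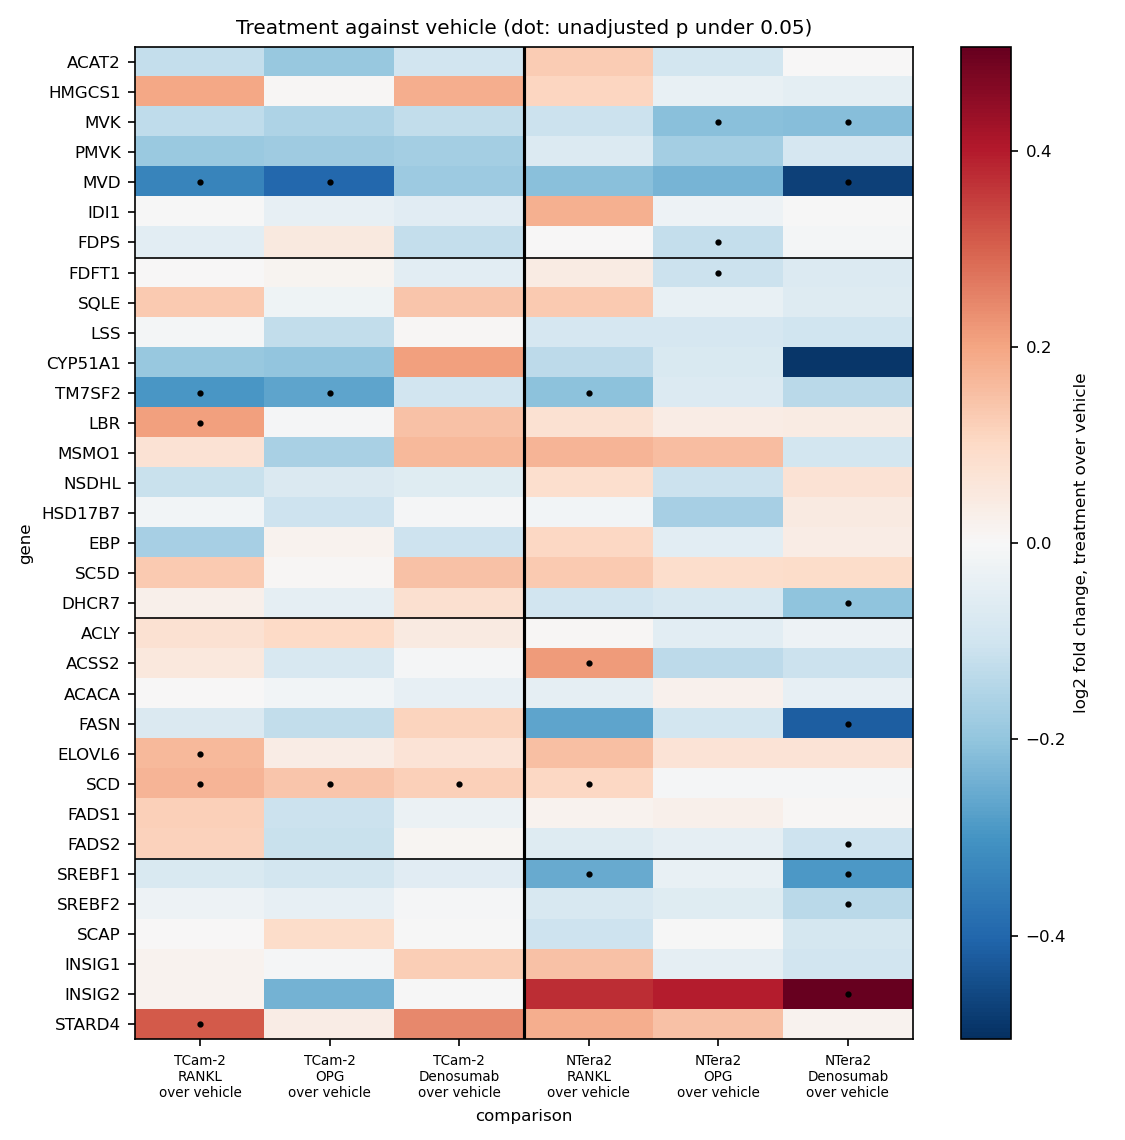
Log2 fold change of each treatment over vehicle (colour, scale at the right) for the 33 members (rows, with lines between the mevalonate steps, squalene to cholesterol, fatty acid branch and regulators) in TCam-2 (left 3 columns) and NTera2 (right 3 columns). Dots mark an unadjusted p under 0.05, and no cell passed after adjustment.

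In TCam-2 with RANKL, 6 members had an unadjusted p under 0.05 in edgeR and 6 in DESeq2, where 8.92% of all genes tested had one in edgeR. SCD, the desaturase, was at 1029, 966, 1046 and 980.1 CPM with RANKL and 954, 852, 890.2 and 766 CPM with vehicle. The RANKL libraries were all above the vehicle ones (0.17, SE 0.0574, edgeR adjusted p = 0.557), and higher in 4 of 4 pairs of the same passage. STARD4 was at 44.9, 34.9, 40.3 and 40.3 CPM with RANKL and 41.1, 28.7, 33.4 and 22.5 CPM with vehicle (0.31, SE 0.132), with overlap between the groups. ELOVL6 differed by 0.17 (SE 0.0679) and LBR by 0.21 (SE 0.0918), and both were higher in 4 of 4 pairs. TM7SF2 differed by -0.30 (SE 0.119) and MVD by -0.33 (SE 0.141), and both were lower in 4 of 4 pairs. All had an edgeR adjusted p of 0.557. With RANKL replicates 2 and 4 left out for their RNA integrity, no member passed, and SCD differed by 0.21, STARD4 by 0.39, LBR by 0.27, ELOVL6 by 0.15, TM7SF2 by -0.26 and MVD by -0.48.

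With OPG, 3 members of TCam-2 had an unadjusted p under 0.05 (4 in DESeq2), against 8.68% of all genes tested. MVD was at 76.2, 47.4, 65.0 and 71.6 CPM with OPG and 74.5, 93.3, 64.5 and 102 CPM with vehicle. The groups overlapped, and MVD differed by -0.40 (SE 0.142, edgeR adjusted p = 0.493), lower in 2 of 4 pairs. SCD was at 1048, 987, 918 and 934 CPM with OPG, against the vehicle values above (0.14, SE 0.0574, edgeR adjusted p = 0.544), and TM7SF2 differed by -0.27 (SE 0.120). The others named were ACLY at 0.10, MVK at -0.16 and LSS at -0.12. With Denosumab, 1 member had an unadjusted p under 0.05 (1 in DESeq2), against 6.56% of all genes tested. It was SCD, at 988, 924, 992 and 982 CPM with Denosumab (0.12, SE 0.0574, edgeR adjusted p = 0.731), higher in 4 of 4 pairs. The next were STARD4 at 0.24, FDPS at -0.12, LBR at 0.15, HMGCS1 at 0.18 and MVD at -0.18. In TCam-2, SCD and ACLY were each above the vehicle library of the same passage in 4 of 4 pairs with each agent. These comparisons share the 4 vehicle libraries.

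In NTera2 with RANKL, 4 members had an unadjusted p under 0.05 in edgeR and 4 in DESeq2, against 10.3% of all genes tested. SREBF1 was at 67.8, 76.8, 80.6 and 59.3 CPM with RANKL and 85.6, 96.7, 71.5 and 92.8 CPM with vehicle, with overlap between the groups (-0.26, SE 0.0999, edgeR adjusted p = 0.418). ACSS2 was at 28.1, 24.0, 24.6 and 27.3 CPM with RANKL and 23.4, 22.7, 23.3 and 22.2 CPM with vehicle. All 4 RANKL values were above the vehicle values, and the difference was 0.21 (SE 0.0907, edgeR adjusted p = 0.441). TM7SF2 differed by -0.21 (SE 0.0931), SCD by 0.11 (SE 0.0509), SQLE by 0.13 (SE 0.0664) and IDI1 by 0.18 (SE 0.0942). With OPG, 3 members had an unadjusted p under 0.05 (4 in DESeq2), against 1.68% of all genes tested. FDFT1 was at 440.1, 434, 426 and 422 CPM with OPG and 463, 482, 467 and 466 CPM with vehicle, without overlap (-0.11, SE 0.0446, edgeR adjusted p = 1.00). MVK differed by -0.21 (SE 0.0887), FDPS by -0.12 (SE 0.0533), MVD by -0.24 (SE 0.118), PMVK by -0.17 (SE 0.0945) and INSIG2 by 0.40 (SE 0.200). MVK, FDPS and PMVK were lower in 4 of 4 pairs. Of the 33 members, 25 had a negative log2 fold change with OPG, 16 of the 19 sterol enzymes among them, against 48.7% of all genes. The share of counts from the 13 mitochondrially encoded mRNAs was 3.52 ± 0.0955% with OPG and 3.22 ± 0.164% with vehicle in NTera2, without overlap, and its part in these values was not tested.

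NTera2 with Denosumab had 8 members with an unadjusted p under 0.05 in edgeR and 8 in DESeq2, against 7.25% of all genes tested. MVD was at 63.0, 99.4, 83.6 and 79.5 CPM with Denosumab and 103, 130.2, 89.4 and 136 CPM with vehicle (-0.47, SE 0.119, edgeR adjusted p = 0.321). It was lower in 4 of 4 pairs, while the ranges of the groups overlapped. DHCR7 was at 160.2, 187, 185 and 172 CPM with Denosumab and 201, 213, 202 and 209 CPM with vehicle. All 4 Denosumab values were below the vehicle values (-0.20, SE 0.0588, edgeR adjusted p = 0.397). With the passage as a block, DHCR7 passed (-0.21, edgeR adjusted p = 0.0482), 1 of 30 genes called in that fit. Without NTera2 Vehicle replicate 3, MVD passed (-0.56, edgeR adjusted p = 0.0455), 1 of 29 genes called in that fit. FASN was at 809, 1216, 1105 and 1091 CPM with Denosumab and 1378, 1565, 1201 and 1604 CPM with vehicle (-0.42, SE 0.135, edgeR adjusted p = 0.442). It was lower in 4 of 4 pairs, and the groups overlapped by a single library. SREBF1 differed by -0.29 (SE 0.101), SREBF2 by -0.14 (SE 0.0498) and INSIG2 by 0.51 (SE 0.202). SREBF2 was lower and INSIG2 higher in 4 of 4 pairs. In all, 23 of 33 members had a negative log2 fold change, against 47% of all genes. The share of counts from mitochondrially encoded mRNAs was 3.79 ± 0.221% with Denosumab and 3.22 ± 0.164% with vehicle in NTera2, without overlap, and its part in these values was not tested.

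The inhibitors were also set against RANKL, in comparisons that share the RANKL libraries. No member and no other gene passed by edgeR or DESeq2 in the 4 comparisons, a background of 0%. In NTera2, 8 members had an unadjusted p under 0.05 for OPG over RANKL (9 in DESeq2) and 6 for Denosumab over RANKL (6 in DESeq2), against 5.01% and 4.36% of all genes tested. ACSS2 was at 20.8, 20.8, 20.7 and 20.3 CPM with OPG and at 22.9, 21.7, 20.4 and 18.5 CPM with Denosumab, against 28.1, 24.0, 24.6 and 27.3 CPM with RANKL. Both inhibitor groups lay below all RANKL libraries, and the log2 fold change was -0.35 for OPG (SE 0.0909, edgeR adjusted p = 0.913) and -0.32 for Denosumab (SE 0.092, edgeR adjusted p = 1.00). With OPG over RANKL, FDFT1 differed by -0.15 (SE 0.0446), ACAT2 by -0.22 (SE 0.0711), SQLE by -0.17, FDPS by -0.12 and SCD by -0.11. With Denosumab over RANKL, SQLE differed by -0.20 (SE 0.0668), INSIG1 by -0.24 (SE 0.0945), FDFT1 by -0.11, SCD by -0.11 and MVD by -0.26. Of the 33 members, 28 were below RANKL with Denosumab and 21 with OPG in NTera2, where 52% and 49.6% of all genes were. In TCam-2, OPG over RANKL gave 3 members an unadjusted p under 0.05 (2 in DESeq2), against 5.14% of all genes tested. LBR differed by -0.21, EBP by 0.19, STARD4 by -0.27, ELOVL6 by -0.13, FADS1 by -0.23 and MSMO1 by -0.23. Denosumab over RANKL gave none in TCam-2 by either tool, against 0.933%, and the named differences were FASN 0.18, TM7SF2 0.20, CYP51A1 0.40, ELOVL6 -0.10, FADS1 -0.15 and MVD 0.15. Of the TCam-2 values without RANKL replicates 2 and 4, CYP51A1 moved to 0.61 and FASN to 0.28, MVD to 0.30, and MSMO1 to -0.35, and no member passed.

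Asked of all 4 treatments at once, no member passed in either line (0% of genes). In TCam-2, 2 members had an unadjusted p under 0.05 by edgeR (2 in DESeq2), SCD and MVD, against 5.85% of all genes tested, and LBR, TM7SF2, STARD4 and FDPS came next. In NTera2, 8 did (9 in DESeq2), against 5.78%, with ACSS2 (edgeR adjusted p = 0.725), MVD, FDFT1, SREBF1, DHCR7 and SQLE in front. The test of whether a treatment differed from vehicle by another amount in TCam-2 than in NTera2 called no member and no gene by edgeR for any agent (0%), and no member by DESeq2. With Denosumab, 4 members had an unadjusted p under 0.05 (3 in DESeq2), against 4.78% of all genes tested. The effect in TCam-2 minus that in NTera2 was 0.32 for DHCR7 (SE 0.0925), 0.57 for FASN (SE 0.178), 0.17 for SREBF2, 0.17 for SCD, 0.27 for SREBF1 and 0.73 for CYP51A1 (SE 0.419), all with an edgeR adjusted p of 0.95. FASN was at 1862, 1786, 1555 and 1541 CPM with Denosumab in TCam-2, against 1508, 1610.5, 1369 and 1549 CPM with vehicle there, with overlap. With OPG, 5 members did (5 in DESeq2), against 5.2%. The differences were 0.18 for ACLY (SE 0.067, edgeR adjusted p = 0.923), 0.17 for SCD, 0.19 for FDPS, -0.61 for INSIG2 and 0.15 for FDFT1, and -0.29 for MSMO1. With RANKL none did (1 in DESeq2), against 5.22%, and the named differences were EBP -0.23, DHCR7 0.17, ACLY 0.11, SREBF1 0.22, LBR 0.17 and SCAP 0.15.

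Sterol and fatty acid branch were also followed as the mean log2 CPM of their members in each library, centred on the 16 libraries of the line. In TCam-2 the fatty acid branch stood at 0.0726 ± 0.0331 with RANKL, -0.0469 ± 0.108 with OPG, 0.0292 ± 0.0874 with Denosumab and -0.0549 ± 0.107 with vehicle (SD, n = 4). The sterol branch stood at 0.00763 ± 0.0375 with RANKL, -0.0637 ± 0.106 with OPG, 0.0563 ± 0.0841 with Denosumab and -0.000268 ± 0.103 with vehicle. In TCam-2 the ranges of each treatment and of vehicle overlapped in both branches. Pairs of the same passage were also compared in TCam-2. The fatty acid branch was above vehicle in 4 of 4 with RANKL, 3 of 4 with OPG and 4 of 4 with Denosumab. The sterol branch was above it in 2, 1 and 3 of 4. RANKL replicates 2 and 4 had low RNA integrity numbers (6.1 and 3.7). Their fatty acid branch stood at 0.0564 and 0.0475, against -0.113 and -0.153 with vehicle. Replicates 1 and 3 stood at 0.121 and 0.0655, against 0.0914 and -0.0449. The part of RNA integrity was not tested. In NTera2 the fatty acid branch stood at 0.0248 ± 0.0436 with RANKL, -0.00374 ± 0.018 with OPG, -0.0629 ± 0.0172 with Denosumab and 0.0419 ± 0.0258 with vehicle. The sterol branch stood at 0.0272 ± 0.0498 with RANKL, -0.0322 ± 0.056 with OPG, -0.0561 ± 0.0389 with Denosumab and 0.0611 ± 0.024 with vehicle. CYP51A1, which rests on few reads, weighs in this mean like any other sterol gene. In NTera2 RANKL replicate 4 it was 2.21 log2 units below vehicle of its passage (-2.21). The sterol branch stood there at -0.0126, against 0.0739 with vehicle. The 4 NTera2 Denosumab libraries lay below all 4 vehicle libraries in both branches, and the 4 NTera2 OPG libraries did so in the sterol branch. By summed TPM, the NTera2 sterol branch stood at 2343 ± 80.5 with RANKL, 2182 ± 13.0 with OPG, 2184 ± 67.7 with Denosumab and 2310 ± 14.9 with vehicle. The RANKL mean was thus above vehicle by summed TPM, without TMM factors, and below it by mean log2 CPM, with them. These averages are descriptions, and no test was made on them.

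**Figure D4:**
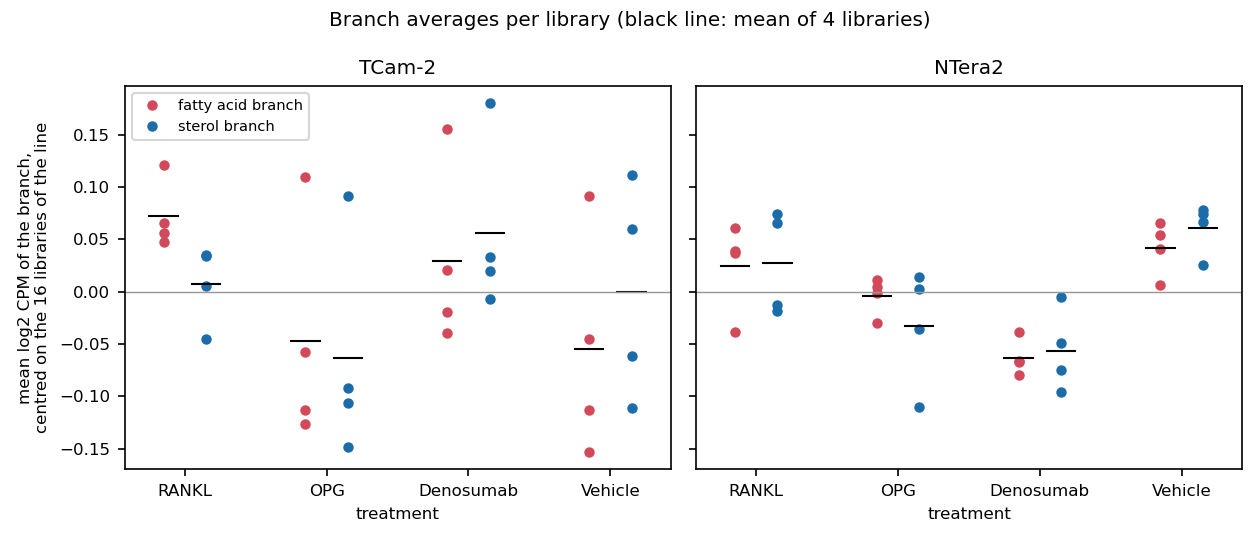
Mean log2 CPM of the fatty acid branch (red, 8 genes) and the sterol branch (blue, 19 genes) in every library (points), centred on the 16 libraries of the line (y axis), by treatment (x axis), with the mean of 4 libraries as a black line. In NTera2 the Denosumab points lie below the vehicle points in both branches and the OPG points in the sterol branch, and in TCam-2 each treatment overlaps vehicle.

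Members also varied between the 4 experiments of a line. The test compared these 4 experiments after allowing for treatment, and passage number as such cannot be told apart from the day of the experiment. In TCam-2, 3 of 33 members passed, against 1.77% of all genes tested. FADS2 was at 251 ± 5.51 CPM at passage 118 and at 181 ± 22.8, 191 ± 10.9 and 165 ± 18.4 CPM at passages 120, 121 and 122 (SD, n = 4 each, edgeR adjusted p = 1.30e-05). Every library of passage 118 was above every library of the later passages. SQLE was at 161 ± 6.17, 124 ± 13.6, 127 ± 6.21 and 121 ± 18.7 CPM in the same order (edgeR adjusted p = 0.00423). HMGCS1 was at 148 ± 7.68, 109 ± 7.46, 119 ± 17.6 and 121 ± 19.5 CPM (edgeR adjusted p = 0.0181). All 3 were highest at passage 118. LSS (adjusted p = 0.0574), SC5D (0.170) and NSDHL (0.176) came next, and LSS passed with RANKL replicates 2 and 4 left out (adjusted p = 0.0452).

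In NTera2, 3 of 33 members passed, against 8.28% of all genes tested, a share near the background. HMGCS1 was at 187 ± 13.3, 151 ± 6.74, 162 ± 12.4 and 163 ± 11.6 CPM at passages 27, 29, 30 and 31 (edgeR adjusted p = 0.00179). MSMO1 was at 45.3 ± 8.83, 34.1 ± 2.32, 35.0 ± 1.43 and 40.6 ± 5.22 CPM (edgeR adjusted p = 0.0104), and SCD was at 718 ± 18.7, 658 ± 34.8, 671 ± 22.6 and 676 ± 27.5 CPM (edgeR adjusted p = 0.0433). Each was highest at passage 27, the earliest. FADS2 (adjusted p = 0.0676), SC5D (0.0868) and LBR (0.0986) did not pass.

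**Figure D5:**
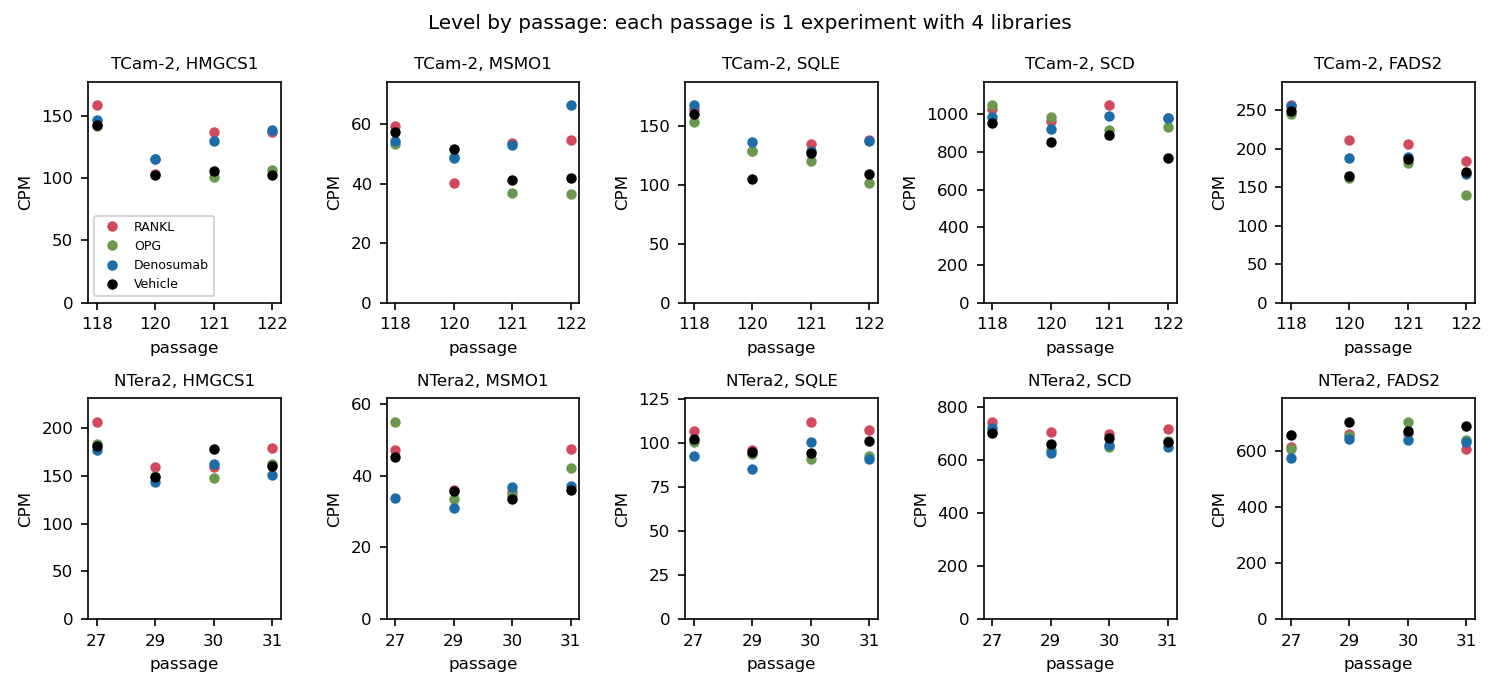
Level in CPM (y axes, from 0) of 5 members by passage (x axis) in TCam-2 (upper row) and NTera2 (lower row), with 1 point for each library, coloured by treatment. In TCam-2 the 4 FADS2 libraries of passage 118 lie above those of the other passages, and in NTera2 HMGCS1 is highest at passage 27.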

How the data were processed

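Polyadenylated RNA of 32 libraries was sequenced as paired 52-bp reads from a stranded kit, per the labels' protocols. Per the submitters' processing notes, the authors used bcl2fastq 2.20.0, STAR 2.7.9a, GRCh38/hg38 and featureCounts 1.6.2, and the deposited values are raw read counts per gene with a gene length. The annotation release and strand setting are not given in the sources used here. All 32 columns were matched by title, and 0 were left over.

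Differences were fitted with edgeR 4.0.16 under R 4.3.3, using filterByExpr, TMM factors and the robust quasi-likelihood F test, with Benjamini-Hochberg adjustment over all genes tested and a threshold of 0.05. Each line contrast used its 8 libraries, treatment, inhibitor and passage tests the 16 of a line, and interactions all 32. The SE was the size of the log2 fold change divided by the square root of F. The 95% intervals of log2 fold changes took the normal quantile times this SE, and so are somewhat narrow for 4 libraries a group. DESeq2 1.42.0, RLE scaling, no filter, a replicate block and leaving out libraries were alternatives, and the fits were tested on simulated data. TPM used the deposited length and no TMM factors. Overlaps came from GENCODE 29 and promoters from RefSeq.

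The members and gene lists were chosen with earlier results of these data known. Named were all members in the line contrast, and otherwise those past the threshold or, where under 6 passed, the 6 of smallest p. Replicate numbers mark the same passage within a line per the labels and so pair libraries there. Deviations of same-numbered libraries correlated with a median r of 0.145 in TCam-2 and 0.218 in NTera2, against -0.0484 and -0.0986 for others. Deviations were taken from group means, so where same-numbered libraries correlate positively the others are pushed negative. The values for others are thus no independent reference. Libraries of a group differed beyond counting noise (chi-square per degree of freedom 2.57 to 17.5).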

Additional observations from a re-analysis of the deposited data

Results flagged for a closer look

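In each of the 8 groups the 4 libraries were searched for a value set apart from the other 3 in each member, by Dixon's test at the 95% level. It marked 14 of 264 sets (5.3%), and chance marks about 1 in 20. No cause was tested for any of them.

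In TCam-2 Denosumab, 3 members stood high in replicate 1: LSS was at 133.2 CPM against 107.8 to 108.3 in the others, TM7SF2 at 40.73 CPM against 33.36 to 34.18, and INSIG1 at 24.81 CPM against 19.47 to 19.84. In the same group SCD was low in replicate 2, at 923.8 CPM against 982.3 to 992.1, and ACAT2 was high in replicate 3, at 8.589 CPM against 6.325 to 6.657. In TCam-2 Vehicle, replicate 1 stood high for HMGCS1, at 142.9 CPM against 102.4 to 106.2, and for ELOVL6, at 192.8 CPM against 176.1 to 178.1. In TCam-2 OPG, FASN was low in replicate 2, at 1075 CPM against 1494.8 to 1573, and FADS1 was low in replicate 4, at 16.62 CPM against 22.19 to 22.42.

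In NTera2 OPG, replicate 4 stood low for MVK, at 24.99 CPM against 29.02 to 29.43, and for HSD17B7, at 9.884 CPM against 14.24 to 15.08. In NTera2 RANKL, FDFT1 was low in replicate 2, at 462.3 CPM against 476.9 to 477.6, and INSIG2 was low in replicate 3, at 4.567 CPM against 6.405 to 6.577. In NTera2 Denosumab, FADS2 was low in replicate 1, at 573.3 CPM against 630.2 to 641.1.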

How the results depend on the processing

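Of 135 gene results refitted 1296 times in all, 1273 refits kept the direction and the side of the threshold, 6 lost the call, 15 gained it and 2 reversed. Of 175 refits of 21 counts of members called, 166 stayed within 1.5 times the count reported. Without a filter on low counts, members called moved to 2 in NTera2 Denosumab over vehicle (MVD and SREBF1), among 237 genes called. They moved to 1 in TCam-2 OPG over vehicle (MVD), among 54 genes called. Over all treatments they moved to 2 in NTera2, among 240 genes, and 1 in TCam-2, among 113. In the line difference of the Denosumab effect 1 member was called (FASN), among 32 genes. Over the passages 8 were called in NTera2, among 1883 genes, and 5 in TCam-2, among 750. With the replicate block, 1 member passed in NTera2 Denosumab over vehicle (DHCR7), among 30 genes called. The block changed no other member call in the treatment comparisons. Across the lines the replicate numbers share no passage. With these numbers as a block 28 members differed under vehicle, among 12944 genes called, SC5D being added (edgeR adjusted p = 0.0262).

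Leaving out 1 library at a time gave 26 to 28 members called between the lines under vehicle. The fit of all these libraries called 27 members, and 76.2% of all genes tested. In NTera2 Denosumab over vehicle, leaving out 1 library gave 0 to 1 member. The 1 was MVD without NTera2 Vehicle replicate 3, among 29 genes called. PMVK ranged from -0.221 to 0.0518 between the lines and reversed, to 0.0208 without NTera2 Vehicle replicate 2 and to 0.0518 without TCam-2 Vehicle replicate 1. With RLE scaling, SCD lost its passage call in NTera2 (adjusted p = 0.06). Without the filter, the median log2 fold change of all genes between the lines moved by -0.109 under vehicle and by -0.2 under OPG. The fits without TCam-2 RANKL replicates 2 and 4 in the line, inhibitor, all-treatment and passage tests were chosen after the data were seen. The cause of these changes was not tested. CYP51A1 rests on few reads, at 1.55 to 10.9 CPM over the 32 libraries.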
